A study of Mus musculus with 8 samples.

Results

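The rows described here are the segments of the T cell receptor beta locus (Trb) that the expression table of this study lists, chosen by symbol alone: names starting with Trbv (variable), Trbd (diversity), Trbj (joining) or Trbc (constant). There were 24 of them among 13245 genes, 22 Trbv and 2 Trbc, and diversity and joining segments were not analysed here. The libraries were made from mouse lymph node CD8 T cells sorted as Ly6C+ and CXCR3+, 2 surface proteins that mark memory-type cells. One group was C57BL/6 (B6), without the transgene, and the other CD103Tg, mice that overexpress the integrin chain CD103, with 4 libraries each. Ages, the promoter of the transgene and whether each library was 1 animal are not given in the sources used here, and p-values here reflect only how far these samples spread, which may be technical. Values are TMM-scaled CPM, a read count relative to a normalized library size, and 1 read was worth 0.0171 to 0.0203 CPM over 50187279 to 56371476 estimated reads per library. Itgae, the gene of CD103, stood at 41.5, 51.4, 37.5 and 173.9 CPM in B6, with replicate 4 above the others, and at 3469 to 5509 CPM in CD103Tg, so the groups were separate for the transgene's own gene.

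The receptor beta chain is assembled in the thymus, where each developing T cell joins 1 variable, 1 diversity and 1 joining segment and splices the product to a constant region. The chain pairs with the alpha chain (constant gene Trac), sits in the membrane with the CD3 chains, and contacts peptide and MHC through loops that the variable segment and the junction encode. Because a mature T cell keeps its rearrangement, the mixture of variable segments in a population reflects which clones it holds, and a large clone raises 1 segment. Trbv19, Trbv13 members, Trbv29 and Trbv1 are segments that innate-like T cells are known to use often. In bulk samples, fewer cells using a segment and less RNA per cell cannot be told apart.

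The 24 rows lay on GRCm38 chromosome 6, from 40891229 to 41558452. Trbv1 to Trbv30 come first on the plus strand, Trbc1 (41538218 to 41539881) and Trbc2 (41546730 to 41548352) follow, and Trbv31 (41557691 to 41558452) lies beyond Trbc2 on the minus strand. In GENCODE M21, 21 of the Trbv rows are variable genes and 1, Trbv24, is a pseudogene. The coding V exons of the 3 segments whose part of the repertoire is followed most closely below are shown with the conserved cysteine codon, where the third complementarity-determining loop begins, in capitals. They are Trbv1 at chr6:40891591-40891885, Trbv15 at chr6:41141361-41141658 and Trbv16 at chr6:41151933-41152230, all on the plus strand.
Trbv1: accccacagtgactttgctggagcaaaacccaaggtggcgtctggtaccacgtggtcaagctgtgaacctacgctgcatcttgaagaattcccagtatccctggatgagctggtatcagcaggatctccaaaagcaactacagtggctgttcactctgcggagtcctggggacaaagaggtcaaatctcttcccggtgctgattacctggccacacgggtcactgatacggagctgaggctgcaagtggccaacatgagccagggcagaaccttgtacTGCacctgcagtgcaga
Trbv15: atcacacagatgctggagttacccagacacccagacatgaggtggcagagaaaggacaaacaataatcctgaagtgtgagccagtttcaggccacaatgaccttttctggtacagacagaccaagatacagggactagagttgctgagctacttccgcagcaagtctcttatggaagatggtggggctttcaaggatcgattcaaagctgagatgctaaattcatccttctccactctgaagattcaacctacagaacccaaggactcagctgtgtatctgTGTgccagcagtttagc
Trbv16: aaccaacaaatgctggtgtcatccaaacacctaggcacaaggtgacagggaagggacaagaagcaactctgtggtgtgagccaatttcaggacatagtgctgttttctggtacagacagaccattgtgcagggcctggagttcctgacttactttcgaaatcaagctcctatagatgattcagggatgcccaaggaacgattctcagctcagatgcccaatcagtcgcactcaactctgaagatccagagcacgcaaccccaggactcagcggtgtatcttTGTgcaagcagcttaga

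How well reads can be assigned depends on how much segments resemble each other. Over 210 pairs of coding variable sequences the identity ran from 45.9% to 90.6%, with a median of 55.2%. The closest were Trbv13-2 with Trbv13-3 (90.6%), Trbv13-1 with Trbv13-2 (88.7%) and Trbv12-1 with Trbv12-2 (88.2%). Trbv15 and Trbv16, neighbours in the locus, shared 70.03%. For 16 of the 22 Trbv rows the estimated reads were whole in all 8 libraries, while Trbv4, Trbv5, Trbv12-1, Trbv12-2, Trbv13-2 and Trbv13-3 held divided reads in at least 1 library. The last 30 coding bases of the Trbv12 and Trbv13 members are shown as an example of how alike the members of a family are. They are on the plus strand, again with the cysteine codon in capitals (chr6:41114038-41114067, chr6:41119335-41119364, chr6:41116439-41116468, chr6:41121803-41121832 and chr6:41130556-41130585, in the order listed).
Trbv12-1: tctgctatgtacttcTGTgccagctctctc
Trbv12-2: tctgccgtgtacttcTGTgccagctctctc
Trbv13-1: catctttgtacttcTGTgccagcagtgatg
Trbv13-2: catcagtgtacttcTGTgccagcggtgatg
Trbv13-3: cagctgtatatttcTGTgccagcagtgatg

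The constant genes are closer still: their 518 coding bases differed at 23 positions, an identity of 95.6%, and both rows held divided reads. The 60-base stretch with the most differences, 10 of them in capitals, shows the kind of read that tells the genes apart. It covers coding bases 438 to 497, at chr6:41539273-41539332 in Trbc1 and chr6:41547816-41547875 in Trbc2, plus strand.
Trbc1: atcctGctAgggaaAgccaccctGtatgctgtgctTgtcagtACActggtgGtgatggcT
Trbc2: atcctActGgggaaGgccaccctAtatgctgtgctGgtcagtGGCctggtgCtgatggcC

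The comparison asked how the receptor beta locus was expressed in CD103Tg against B6 cells. Both constant genes and 10 variable segments were lower in CD103Tg, the sum over the locus by about the same proportion, while the shares of the repertoire overlapped between groups for 20 of 22 segments. Trbc1, the constant gene of the upstream cluster, went from 517.5 ± 52.3 to 413.0 ± 11.2 CPM (SD, n = 4 each) and Trbc2, that of the downstream cluster, from 1043.1 ± 115.6 to 848.4 ± 36.6 CPM. The 22 Trbv rows summed to 409.8 ± 41.5 CPM in B6 and 333.3 ± 6.9 CPM in CD103Tg. No Trb row passed the test as higher.

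Trbc1 stood at 547.6, 483.4, 574.9 and 464.1 CPM in the 4 B6 libraries and at 429.4, 409.0, 409.3 and 404.2 CPM in CD103Tg. Every CD103Tg library lay below every B6 library, a log2 fold change of -0.32 ± 0.07 with its standard error (adjusted p = 0.00504 by limma). Trbc2 had 1119.4, 982.0, 1158.7 and 912.1 CPM in B6 and 900.0, 844.1, 835.6 and 813.9 CPM in CD103Tg. These groups did not overlap either, although the lowest B6 and the highest CD103Tg value were close, and the log2 fold change was -0.29 ± 0.08 (adjusted p = 0.0155). The B6 libraries spread more widely than the CD103Tg ones in both genes, with replicates 1 and 3 high and 2 and 4 low. B6 replicate 4, the library with the highest Itgae and the lowest summed Trbc of its group, also had the highest Cd247 (477.9 CPM, against 285.4 to 314.8 CPM in the other B6 libraries), and without it 14 Trb rows were called lower instead of 12.

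Trbc1 made up 33.2% ± 0.4 of the constant signal in B6 and 32.7% ± 0.4 in CD103Tg (SD, n = 4 each), with overlapping ranges of 32.8% to 33.7% and 32.3% to 33.2%. Per exonic length the Trbc1 part was 31.5% ± 0.4 and 31.0% ± 0.4, so Trbc2 was the more abundant in all 8 libraries on this scale. The summed Trbv signal was 26.3 ± 0.2 per 100 CPM of Trbc in B6 and 26.4 ± 0.9 in CD103Tg, with the B6 range of 26.1 to 26.5 inside the CD103Tg range of 25.2 to 27.4. Variable and constant rows were therefore lower by a like amount, 18.7% and 19.2% of the B6 mean.

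**Figure D1:**
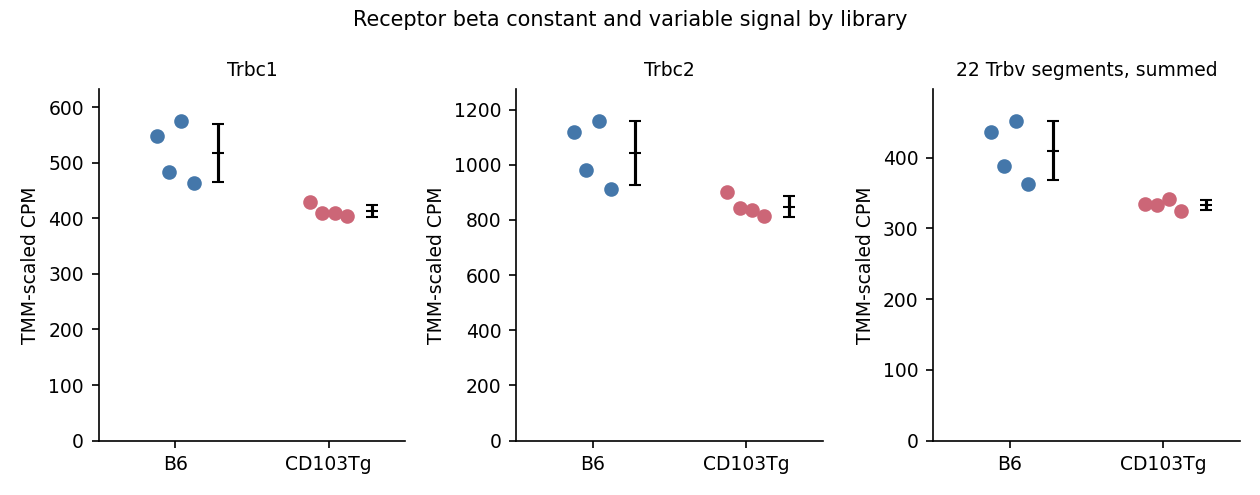
CPM of Trbc1, Trbc2 and the sum of the 22 Trbv rows (vertical axes from 0) in each library of the B6 and CD103Tg groups, with the mean and SD beside the points. In each panel the 4 CD103Tg libraries lie below the 4 B6 libraries.

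Of the 24 rows, 21 passed the filter of a mean of at least 1 CPM and were tested: 12 were lower, 0 higher and 9 did not pass, at an adjusted p under 0.05 by limma. The count of 0 was the same by limma voom on the estimated reads, and at an unadjusted p under 0.05 there were 0 higher. Over all 11503 genes tested, 13.8% were called lower, 17.4% higher and 31.2% either way. The median log2 fold change of the 21 rows was -0.33, against -0.005 over all tested genes, and 19 of the 21 were below 0, against 51.1% of all genes. The groups did not overlap, all CD103Tg lower, in 8 of the 21, where 13.6% of all tested genes did so. Trbv23, Trbv24 and Trbv30 were not tested: their means were 0.86 and 0.89, 0.62 and 0.36, and 0.73 and 0.81 CPM in B6 and CD103Tg, from 11 to 71 estimated reads per library.

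Of the called variable segments, the largest decreases were in the last and in a middle segment of the locus. Trbv31, the segment that joins by inversion, stood at 8.85, 6.92, 11.04 and 7.78 CPM in B6 and 4.88, 5.04, 4.71 and 6.32 CPM in CD103Tg. All CD103Tg values were below the B6 ones, and the log2 fold change was -0.62 ± 0.14 (limma adjusted p = 0.00642). Trbv15 (41141188 to 41141658) had 14.59, 11.86, 15.53 and 10.65 CPM in B6 and 8.81, 7.78, 8.43 and 8.56 CPM in CD103Tg. Its groups were apart too, and its CD103Tg libraries were close together (-0.58 ± 0.12, adjusted p = 0.00343, the smallest of the 21 rows).

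Trbv3, near the upstream end (41048290 to 41048828), stood at 40.50, 33.58, 40.00 and 30.34 CPM in B6 and 30.28, 18.41, 23.10 and 26.54 CPM in CD103Tg. CD103Tg replicate 1 was just under the lowest B6 library and replicate 2 far below it (-0.55 ± 0.14, limma adjusted p = 0.0127). Trbv14 (20.89, 17.28, 21.57 and 16.66 CPM in B6, 15.48, 14.70, 12.86 and 14.36 CPM in CD103Tg) was lower without overlap (-0.38 ± 0.10, adjusted p = 0.0144). Trbv29 had 18.82, 14.45, 18.71 and 15.23 CPM in B6 and 15.58, 8.20, 9.49 and 12.41 CPM in CD103Tg, so that CD103Tg replicate 1 reached into the B6 range (-0.55 ± 0.17, adjusted p = 0.0301). The adjusted p exceeded 0.05 once B6 replicate 1 (0.0777) or 3 (0.0789), or CD103Tg replicate 2 (0.0843) or 3 (0.0842), was omitted.

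The 3 Trbv13 members, a family used widely in B6 mice, were all lower. Trbv13-3 stood at 26.59, 25.35, 28.88 and 25.77 CPM in B6 and 21.40, 22.28, 21.08 and 18.99 CPM in CD103Tg (-0.33 ± 0.08, limma adjusted p = 0.00612). Trbv13-1 had 22.83, 20.46, 24.18 and 18.57 CPM in B6 and 16.92, 17.48, 15.84 and 16.12 CPM in CD103Tg (-0.35 ± 0.09, adjusted p = 0.0127). Neither overlapped between groups. Trbv13-2, at 30.17, 27.65, 31.36 and 27.10 CPM in B6, stood at 27.53, 17.88, 20.65 and 19.41 CPM in CD103Tg, with CD103Tg replicate 1 above the lowest B6 library (-0.44 ± 0.12, adjusted p = 0.0147).

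Both Trbv12 members were also lower, with overlap. Trbv12-2 stood at 51.97, 45.88, 48.78 and 37.76 CPM in B6 and 40.00, 33.82, 33.78 and 37.94 CPM in CD103Tg, where 2 libraries were above the lowest B6 value (-0.33 ± 0.10, limma adjusted p = 0.0262). Trbv12-1 had 29.63, 25.33, 33.75 and 21.17 CPM in B6 and 17.84, 16.40, 17.85 and 23.33 CPM in CD103Tg, with CD103Tg replicate 4 inside the B6 range (-0.51 ± 0.14, adjusted p = 0.0182). Omitting B6 replicate 1 (adjusted p = 0.0731), 2 (0.0558) or 3 (0.0695), or CD103Tg replicate 2 (0.0759) or 3 (0.075), ended the call of Trbv12-2. For Trbv12-1 the same held for B6 replicate 1 (0.0502) or 3 (0.0515) and CD103Tg replicate 2 (0.0573). Because reads are divided within families, the family sums were also read: Trbv12 held 17.9% ± 1.1 of the summed Trbv signal in B6 and 16.6% ± 1.8 in CD103Tg, and Trbv13 18.9% ± 0.6 and 17.7% ± 1.4 (SD, n = 4 each), with overlap in both.

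Among the 9 tested segments that did not pass were 4 of the 10 with the largest mean share. Trbv16, the segment with the highest CD103Tg mean, had 41.63, 39.33, 43.56 and 42.52 CPM in B6 and 31.58, 55.39, 47.86 and 36.47 CPM in CD103Tg. Its CD103Tg libraries lay on both sides of the narrow B6 range, at a log2 fold change of 0.003 ± 0.14 (limma adjusted p = 0.99) whose sign turned under other scalings. Trbv1, the first segment of the locus, was at 21.75, 20.14, 23.37 and 17.79 CPM in B6 and 23.14, 27.10, 24.51 and 18.46 CPM in CD103Tg, a log2 fold change of 0.15 ± 0.12 (adjusted p = 0.362). Trbv16 and Trbv1 were the only tested Trb rows with a fitted value above 0.

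Trbv19 stood at 29.10, 24.76, 26.94 and 28.08 CPM in B6 and 22.07, 26.25, 28.27 and 21.58 CPM in CD103Tg (-0.15 ± 0.10, limma adjusted p = 0.265). Trbv17 had 25.25, 21.55, 21.97 and 19.34 CPM against 15.82, 18.49, 19.08 and 20.51 CPM (-0.24 ± 0.10, adjusted p = 0.0918), and passed as lower with quantile normalization (0.0462) and without B6 replicate 4 (0.0471). In both segments the groups overlapped. Trbv5 was at -0.30 ± 0.11 (adjusted p = 0.0712) and passed as lower with equal totals (0.0424), with quantile normalization (0.0361) and without B6 replicate 4 (0.00735). The remaining 4, Trbv2, Trbv4, Trbv20 and Trbv26, had log2 fold changes of -0.05, -0.20, -0.10 and -0.34.

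**Figure D2:**
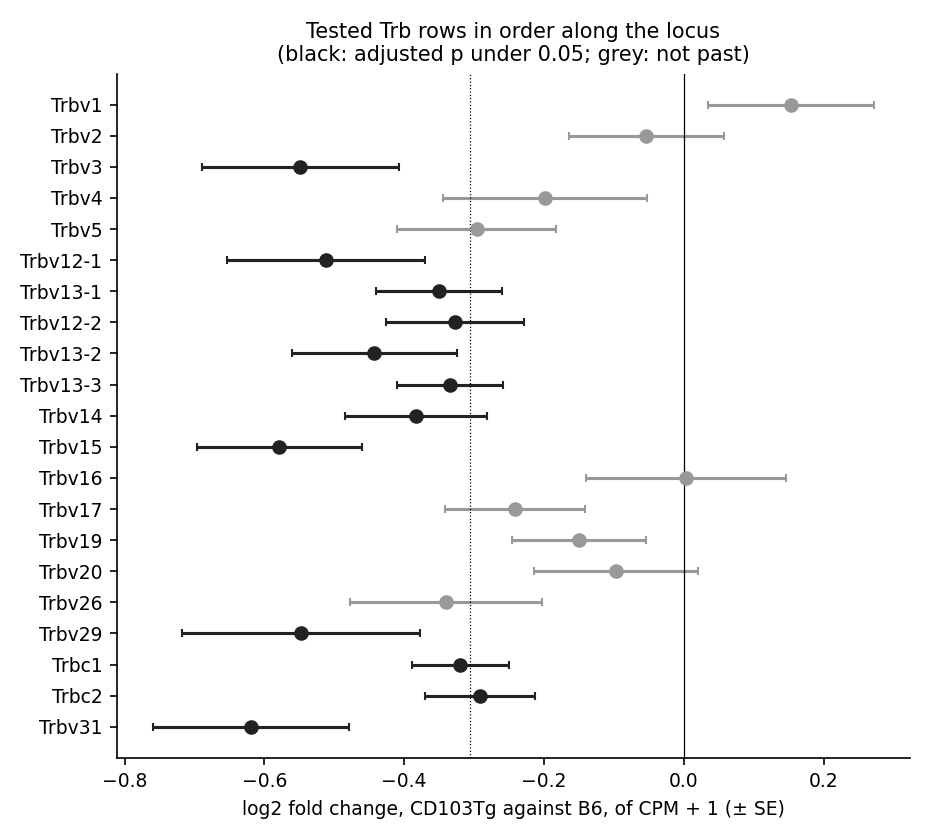
Log2 fold change of CPM + 1 in CD103Tg against B6 with its SE (horizontal axis) for the 21 tested Trb rows in order along the locus (vertical axis). Black points passed an adjusted p under 0.05, grey points did not, and the dotted line is the mean of Trbc1 and Trbc2. All 12 black points lie below 0, and Trbv1 and Trbv16 are the points above it.

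The fitted changes of the 19 tested variable segments ran from -0.62 (Trbv31) to 0.15 (Trbv1), around the -0.32 and -0.29 of the constant genes. Position did not order them clearly: the rank correlation of locus order with log2 fold change was -0.267 over the 19 segments, which share libraries and are not independent. That of mean CPM with log2 fold change was 0.13, and that of exonic length 0.201. Segments beside each other could differ, as Trbv15 and Trbv16 did in their values above.

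Shares of the summed Trbv signal remove the common decrease. They are given as descriptions with no test, and rest on 16424 to 23826 estimated Trbv reads per library. Repertoires were alike in order: the rank correlation of the mean shares of the 22 segments between groups was 0.973, and 4 segments were among the 5 largest in both. Trbv12-2 held 11.2% ± 0.8 in B6 and 10.9% ± 1.0 in CD103Tg (SD, n = 4 each), Trbv16 10.3% ± 1.0 and 12.8% ± 3.2, Trbv3 8.8% ± 0.4 and 7.4% ± 1.5, and Trbv19 6.7% ± 0.8 and 7.4% ± 0.9. At the other end Trbv23, Trbv24, Trbv26 and Trbv30 each held under 1% in both groups.

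Dividing by exonic length, which ran from 335 to 566 bases, brings the levels of different segments nearer to a common scale. The length counts all annotated exon bases of a gene and may differ from that of the transcripts present, so the order depends on the annotation. On that scale the B6 order was Trbv12-2 (11.4% ± 0.8), Trbv16 (10.1% ± 1.0), Trbv13-2 (8.2% ± 0.3), Trbv3 (7.6% ± 0.3) and Trbv13-3 (7.5% ± 0.5). The ranges over libraries overlapped for each neighbouring pair in this order except Trbv16 and Trbv13-2. In CD103Tg it was Trbv16 (12.7% ± 3.2), Trbv12-2 (11.2% ± 1.0), Trbv13-2 (7.4% ± 1.4), Trbv13-3 (7.3% ± 0.4) and Trbv1 (6.6% ± 1.0). Here the ranges of neighbours overlapped except those of Trbv12-2 and Trbv13-2. Trbv19, with the longest exonic length, held 4.6% ± 0.5 and 5.1% ± 0.6.

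Shares of 2 of the 22 segments did not overlap between groups. In CPM, a different measure, the groups did not overlap in 31.0% of all tested genes. Trbv1 held 4.98%, 5.20%, 5.17% and 4.90% in B6 and 6.91%, 8.15%, 7.18% and 5.69% in CD103Tg, a mean of 5.06% ± 0.14 against 6.98% ± 1.01. The 4 B6 libraries were close together and all 4 CD103Tg libraries above them. The nearest libraries were B6 replicate 2 (95% Wilson interval 4.90% to 5.51%) and CD103Tg replicate 4 (5.35% to 6.05%), whose intervals, which cover counting error only, overlapped. Trbv15 held 3.34%, 3.06%, 3.44% and 2.94% in B6 and 2.63%, 2.34%, 2.47% and 2.64% in CD103Tg, a mean of 3.19% ± 0.24 against 2.52% ± 0.14. Set against the constant genes, Trbv1 was at 1.33 ± 0.04 per 100 CPM of summed Trbc in B6 and 1.85 ± 0.28 in CD103Tg, and Trbv15 at 0.839 ± 0.057 and 0.666 ± 0.034, again apart. On that scale Trbv14 was apart as well, at 1.22 ± 0.03 and 1.14 ± 0.07, but only just. B6 replicate 2 and CD103Tg replicate 4 both stood at 1.179 after rounding.

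In the other 20 segments the shares overlapped. Trbv16 took 9.54%, 10.14%, 9.64% and 11.72% in B6. In CD103Tg it took 9.43% in replicate 1 (95% Wilson interval 8.997% to 9.89%), 16.7% in replicate 2 (16.1% to 17.2%), 14.0% in replicate 3 (13.5% to 14.5%) and 11.2% in replicate 4 (10.8% to 11.7%). None of the 4 CD103Tg intervals overlapped another, so these libraries differed by more than the counting error of reads. Replicates 2 and 3 exceeded all B6 libraries. Trbv3 went the other way, at 5.54% and 6.77% in CD103Tg replicates 2 and 3 but 9.05% and 8.18% in replicates 1 and 4, beside 8.36% to 9.28% in B6.

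Replicate 1 of CD103Tg weighed on these counts. Without it, 6 segments had shares that did not overlap, Trbv1 and Trbv2 higher and Trbv3, Trbv13-2, Trbv14 and Trbv15 lower. Without CD103Tg replicate 4 there were 4, Trbv1 higher and Trbv12-1, Trbv15 and Trbv31 lower. Trbv1 and Trbv15 were among them whichever library was left out. This was certain beforehand, because groups that do not overlap stay apart when a library is removed. The rate over all genes was not computed with a library left out. Trbv13-2 held 8.23% in CD103Tg replicate 1 against 5.37%, 6.05% and 5.98% in the others and 6.91% to 7.47% in B6. Trbv29 likewise held 4.65% in that library against 2.47%, 2.78% and 3.82%.

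**Figure D3:**
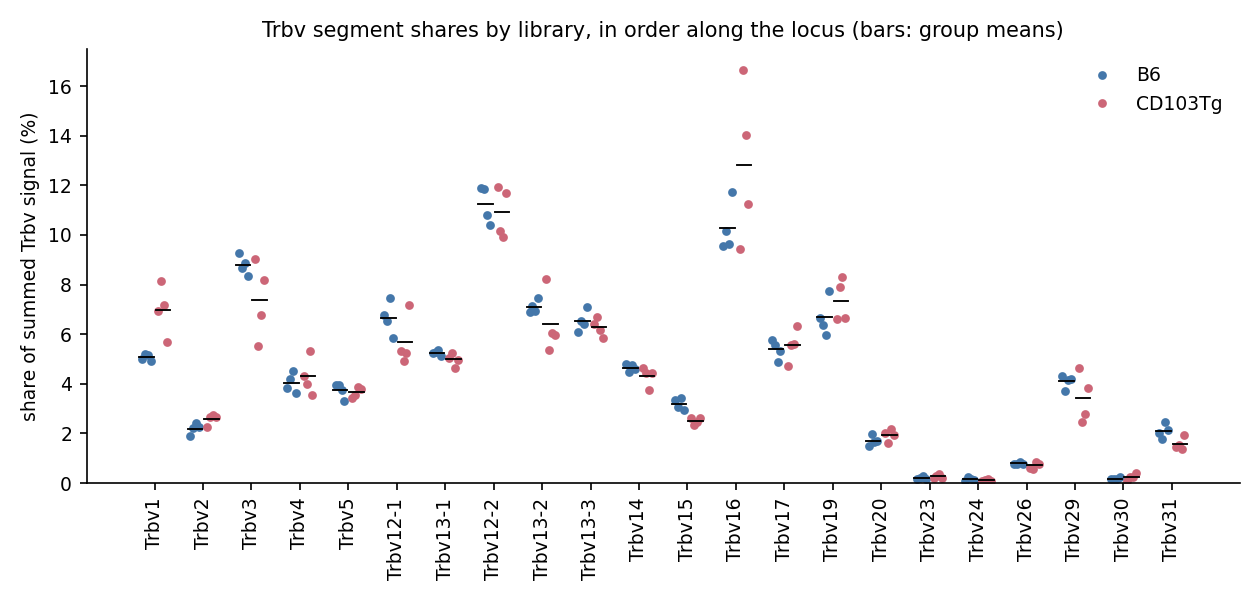
Share of the summed Trbv signal in percent (vertical axis) for each of the 22 segments in order along the locus, with 1 point per library and a bar at each group mean. The Trbv1 points of CD103Tg lie above those of B6, the Trbv15 points below, and the Trbv16 points of CD103Tg range from 9.43% to 16.7%.

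Breadth of usage was summarised by the effective number of segments, the exponential of the Shannon entropy of the shares, which would equal 22 if every segment were used alike. It was 16.67, 16.86, 17.15 and 16.68 in B6 and 16.49, 15.77, 16.55 and 16.81 in CD103Tg, means of 16.84 ± 0.22 and 16.41 ± 0.45 with overlapping groups. The lowest, CD103Tg replicate 2, was the library with the highest Trbv16 share, and without it the difference of the means went from -0.43 to -0.22. Leaving Trbv16 out of the sum brought the difference to -0.07. The largest segment was Trbv12-2 in B6 replicates 1 to 3 and CD103Tg replicates 1 and 4, and Trbv16 in the other 3 libraries. The largest share was 10.8% to 11.9% in B6 and 11.7% to 16.7% in CD103Tg.

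How far any 2 libraries differed was measured as the part of the Trbv signal that would have to move to another segment. Pairs of B6 libraries differed by 2.92 to 5.76 percentage points (6 pairs, median 4.30) and pairs of CD103Tg libraries by 5.79 to 11.97 (6 pairs, median 9.48). The nearest CD103Tg pair was thus about as far apart as the farthest B6 pair. The 16 pairs across groups differed by 4.20 to 13.42 points, with a median of 7.84. CD103Tg replicates 1 and 4 were 4.20 to 6.70 points from the B6 libraries, whereas CD103Tg replicates 2 and 3 stood 8.99 to 13.42 points from B6 and 5.79 points from each other. Pairs share libraries and are not independent, so these distances are descriptions.

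**Figure D4:**
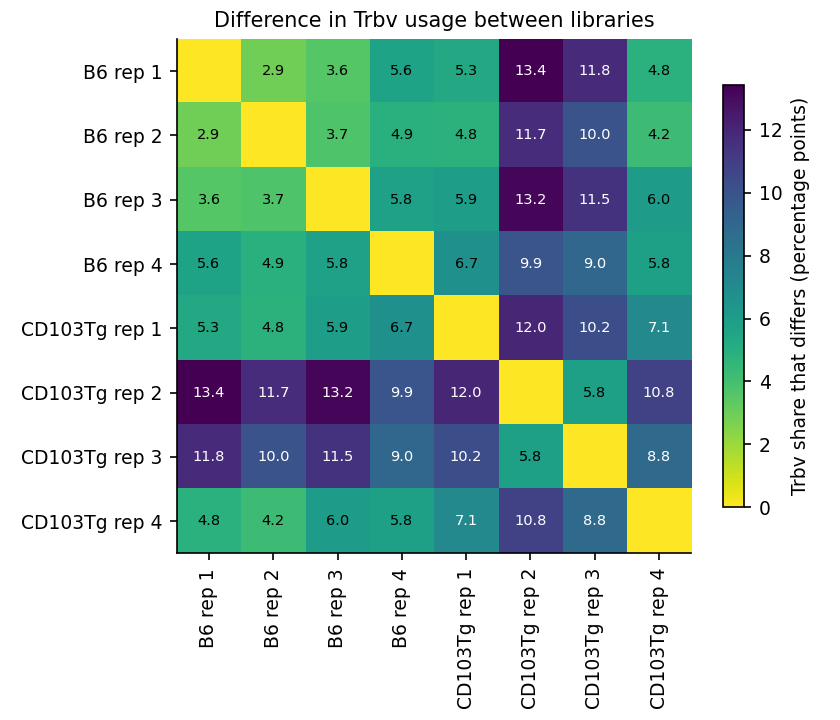
Part of the summed Trbv signal, in percentage points, that differs between each pair of the 8 libraries (rows and columns; colour scale from 0). CD103Tg replicates 2 and 3 are nearest to each other at 5.8 points and differ from the B6 libraries by 9.0 to 13.4 points.

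The chains that pair with the beta chain were read from the same fit. Trac, the alpha constant gene, fell by 0.64 ± 0.07 on the log2 scale, from 1006.8 ± 87.1 to 642.2 ± 31.7 CPM (limma adjusted p = 4.9e-05), with no overlap. The ratio of summed Trbc to Trac CPM was thus 1.55 ± 0.12 in B6 and 1.97 ± 0.16 in CD103Tg (SD, n = 4 each), again apart. Cd3d (0.08 ± 0.07, adjusted p = 0.431), Cd3e (-0.11 ± 0.07, adjusted p = 0.212) and Cd3g (-0.04 ± 0.06, adjusted p = 0.714), the CD3 signalling chains, did not pass. Summed Trbc over Cd3d was 2.32 ± 0.06 in B6 and 1.78 ± 0.03 in CD103Tg, over Cd3e 1.73 ± 0.08 and 1.52 ± 0.04, and over Cd3g 1.84 ± 0.09 and 1.53 ± 0.02. None of these 3 ratios overlapped between groups. They are ratios of CPM and not per length, so only the groups can be compared.

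Of 9 partner chain and co-receptor genes 8 were tested, 1 higher, 3 lower and 4 not past, where 17.4% of all tested genes were higher and 13.8% lower. Cd247, the zeta chain, rose (4.68 ± 0.15), standing at 285.4 to 477.9 CPM in B6 and 7877 to 10164 CPM in CD103Tg. Beside Trac, the co-receptor gene Cd8a fell by 0.24 ± 0.05 (limma adjusted p = 0.00602). Trat1, a receptor-associated adaptor, was lower (-0.95 ± 0.33, adjusted p = 0.0492) and lost its call without any 1 library other than B6 replicate 4 and CD103Tg replicate 4, with adjusted p = 0.0975 to 0.131. It also missed the threshold with voom (0.0594), a pseudocount of 5 (0.0525), no filter (0.0513) and a minimum mean of 5 CPM (0.0511). Cd8b1 did not pass (-0.19 ± 0.08, adjusted p = 0.079) but did as lower with equal totals (0.0233), with quantile normalization (0.002) and without B6 replicate 4 (0.0489) or CD103Tg replicate 1 (0.0461). Of the 96 rows of alpha variable segments (Trav), 70 were tested, and 36 were lower and 4 higher, with a median log2 fold change of -0.52, beside 13.8% lower, 17.4% higher and a median of -0.005 over all tested genes. With a minimum mean of 5 CPM 15 Trav rows were tested, 6 lower and 2 higher. Whether beta and alpha segments differed in their change was not tested.

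Of 15 genes of V(D)J recombination, the thymic process that assembles the segments, 12 were tested, 1 higher, 3 lower and 8 not past, a share called near the 31.2% of all tested genes. Hmgb2, a DNA-bending cofactor also known as a proliferation-linked gene, rose by 0.97 ± 0.09 (limma adjusted p = 1.55e-05). The kinase gene Prkdc (-0.32 ± 0.10, adjusted p = 0.0304), the nuclease gene Dclre1c (-0.28 ± 0.09, adjusted p = 0.0386) and the ligase gene Lig4 (-0.34 ± 0.10, adjusted p = 0.027), which act in end joining, were lower. Leaving out 1 library ended these calls for Prkdc without B6 replicate 2 or 4 or CD103Tg replicate 1, 2 or 3 (adjusted p = 0.0545 to 0.0911), and for Dclre1c without B6 replicate 2, 3 or 4 or CD103Tg replicate 1 or 2 (0.0696 to 0.109). Lig4 lost its call without B6 replicate 2 or 3 or CD103Tg replicate 2, 3 or 4 (0.0516 to 0.072). Dntt, which adds junction bases in the thymus, was at 0.51 to 0.82 CPM in B6 and 0 to 1.34 CPM in CD103Tg, and was not tested.

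Of 6 genes whose products bind the beta enhancer, which lies between Trbc2 and Trbv31, 2 were higher, 2 lower and 2 not past, where 31.2% of all tested genes were called. Runx1 fell by 0.73 ± 0.11 (29.9, 21.9, 31.4 and 30.5 CPM in B6, 15.6, 17.6, 15.7 and 17.3 CPM in CD103Tg, limma adjusted p = 0.000478). Ets1 fell by 0.41 ± 0.07 (adjusted p = 0.00172), while Gata3 rose by 0.39 ± 0.09 (adjusted p = 0.00501) and Tcf3 by 0.41 ± 0.06 (adjusted p = 0.000251). In each of these 4 genes the groups did not overlap, as in 31.0% of all tested genes. Their part in the Trb values was not tested.

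Some markers of other cells differed between the groups and others did not. Over all tested genes 17.4% were called higher, 13.8% lower and 31.2% either way, beside which the counts below stand. Of 6 gamma delta T cell genes 5 were tested and 4 were higher. The 5 together summed to 17.5 to 28.9 CPM in B6 and 50.9 to 120.9 CPM in CD103Tg, of which Trdc, the delta constant gene, was 7.98 to 14.09 and 10.38 to 14.71 CPM (limma adjusted p = 0.236). Innate-like T cell genes summed to 6.47 to 6.72 CPM in B6 and 6.27 to 10.13 CPM in CD103Tg, with 2 of 7 tested, Klrb1c higher and Trav11d not past. The sum joins genes that went different ways: Klrb1c stood at 2.91 to 4.10 and 5.14 to 8.93 CPM, whereas the segments Trav1 (1.36 to 1.66 and 0.17 to 0.34 CPM, not tested) and Trav11d (1.12 to 2.31 and 0 to 1.04 CPM, limma adjusted p = 0.0801) had every CD103Tg value below the B6 values. Of 3 CD4 T cell genes Cd40lg was at 0.45 to 0.79 and 0.04 to 0.08 CPM, and the other two were not analysed here. Of 4 B cell genes tested 1 was higher, 2 lower and 1 not past: Cd79a rose (0.48 to 0.77 CPM in B6, 1.44 to 2.18 CPM in CD103Tg), while Ighm (763.1 to 851.7 and 303.8 to 493.4 CPM) and Ighd (22.03 to 40.42 and 3.26 to 11.26 CPM) fell. NK cell genes summed to 156.7 to 185.8 and 309.8 to 385.3 CPM, mostly Eomes, which memory CD8 T cells also express, with Ncr1 at 0.35 to 0.66 and 0.18 to 0.61 CPM. Myeloid genes summed to 3.78 to 64.33 and 12.10 to 88.72 CPM, highest in CD103Tg replicate 2, and none of 3 tested passed. The part of these cells in the Trb values was not tested. The 7 genes that define CD8 alpha beta T cells were all detected in every library and all tested. Of them 4 were lower (Cd8a, Trbc1, Trbc2 and Trac), 0 higher and 3 not past. Their summed levels were 6598 to 7767 CPM in B6 and 5854 to 6492 CPM in CD103Tg, without overlap. That list holds Trbc1, Trbc2 and Trac, so its counts and sum in part repeat the values above.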

How the data were processed

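RNA-seq libraries (SMART-Seq cDNA amplification and Nextera XT, per the labels' protocols) were compared between 4 B6 and 4 CD103Tg samples. Per the submitters' processing notes, bcl2fastq 2.17, cutadapt 1.18, STAR 2.7.0f and RSEM were used with GRCm38 (mm10). The authors deposited 1 table of a normalized signal (CPM after TMM scaling) for 13245 filtered genes. All gene IDs matched GENCODE M21, whose GRCm38 coordinates, exonic lengths and transcript sequences were used; the authors' annotation and gene filter are not given in the sources used here. Low values were multiples of 0.01 of a read, with 63.0% to 65.2% whole within 0.005, so estimated reads were recovered for depth, Wilson intervals and limma voom. RSEM divides reads that fit several genes. This can shift signal within the Trbv12 and Trbv13 families, between Trbc1 and Trbc2, and in Trbv4 and Trbv5. No molecular identifiers are named, so amplified copies may count as separate reads. The intervals cover the counting error of reads alone and may be too narrow for molecules.

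Rows averaging 1 CPM or more entered the test, run on log2(CPM + 1) by limma 3.58.1 in R 4.3.3 (lmFit, eBayes with a trend, genotype only, two-sided, Benjamini-Hochberg over all 11503 genes), after a check on simulated data. The pseudocount understates changes of low rows. Shares, effective numbers and distances were computed in Python 3.11.15 (pandas 2.3.3) with no test, and identities by global alignment in biopython 1.88. Members, lists and tests were chosen with earlier results of these data known. Rows with full values are the constant genes, the 10 variable segments of highest mean share and those past the test, and others are given by range or fold change; of other lists the members past the test are named, and some markers were chosen after their values were seen. Alternatives were other pseudocounts (0.1 and 5), filters, scalings, voom, the replicate number as a block and leaving out each library; leaving out Trbv16 was added after seeing the data. One marker gene of another cell type is not reported here.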

Additional observations from a re-analysis of the deposited data

Results flagged for a closer look

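Of 102 groups of 4 values examined (levels, shares and library summaries), 2 had a library far from the other 3, where chance would give about 1 in 20. Trbv2 in B6 replicate 3 stood at 10.89 CPM against 8.16 to 8.60 CPM in the other B6 libraries. The Trbv26 share in B6 replicate 3 was 0.866% against 0.759% to 0.776%.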

How the results depend on the processing

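Under the 17 other settings of the fit, 9 to 14 Trb rows were lower and 0 higher. Of the 12 called rows 9 kept their call in every setting, and Trbv12-1, Trbv12-2 and Trbv29 lost theirs only when a library was left out. Among rows that did not pass, the log2 fold change of Trbv2 ran from -0.093 to 0.033 when a library was left out (above 0, at 0.033 and 0.001, in the absence of B6 replicate 3 or CD103Tg replicate 1). That of Trbv16 was -0.001 with median-of-ratios scaling, -0.025 with equal totals and -0.026 with quantile normalization, and ran from -0.129 to 0.135 when a library was left out. With a minimum mean of 5 CPM, 6 Trav rows were lower and 2 higher, of fewer rows tested. The number of segments with separate shares was 2 to 6 when a library was left out, and 2 in the other versions. Leaving out a library could keep or raise that number but not reduce it. Leaving Trbv16 out of the sum moved the difference in effective number from -0.433 to -0.074, and leaving out a library gave -0.568 to -0.222. The labels give both groups replicates 1 to 4. In their deviations from the group means, same-numbered libraries correlated at -0.081 to 0.35 and differently numbered ones at -0.207 to 0.236. These ranges overlap and do not settle whether equal numbers are pairs, and the main fit did not take them as pairs. With the replicate block 12 Trb rows were lower and 0 higher. Over all genes 1653 were then lower and 2029 higher, against 1592 and 2000. The block ended the calls of Trat1 (adjusted p = 0.0835) and Lig4 (0.0502). By voom 1567 genes were lower and 1964 higher, and by quantile normalization 1995 and 1741. The first cluster share of Trbj was not run. Depth limits Trbv23, Trbv24 and Trbv30, with 11 to 71 reads per library.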
